A study of Mus musculus with 6 samples.

Results

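The blocks described here are stretches of the mouse genome that carried H3K36me3 in mature thymic T cells while lying 50 kb or more from every window called for H3K4me3. They were chosen on chromosomes 1 to 19 from CD4 and CD8 reads pooled per mark. A 10 kb window counted as enriched with at least 40 H3K36me3 reads and at least 2 times the input in RPM, the reads scaled to the size of the library. A 2 kb window counted as H3K4me3 with at least 20 reads and at least 4 times the input, with input set to at least 3 reads. Enriched windows 50 kb or more from every such H3K4me3 window were joined when adjacent and kept when the joined block was under 100 kb, and windows with 150 or more reads in both inputs were left out. The rule gave 1434 blocks. Enriched windows formed 7959 runs in all, and a block could be only a part of such a run. Of the 25892 enriched windows, 3909 (15.1%) lay far from H3K4me3 and 3319 belonged to the blocks. They covered 33.19 Mb, or 1.34% of the 10 kb windows. The other far windows formed 46 runs of 100 kb or more, the longest of 300 kb.

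Trimethylation of lysine 36 of histone H3 is laid down behind elongating RNA polymerase and usually covers the body of a transcribed gene, with more of it toward the 3′ end. Trimethylation of lysine 4 marks the nucleosomes around active promoters. A gene that is being transcribed therefore commonly has H3K4me3 at its start and H3K36me3 downstream of it, and in a long gene the far end of the H3K36me3 can lie a long way from the promoter.

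The samples were mature CD4+ and mature CD8+ T cells from the thymus of C57BL/6 mice. Nuclei had been digested with micrococcal nuclease, an enzyme that cuts between nucleosomes, to give mononucleosomes. Each cell type had 1 library precipitated with a rabbit polyclonal antibody against H3K4me3, 1 library with such an antibody against H3K36me3, and 1 input with no antibody. No group had a replicate, so no p-value is given, and every interval below is a 95% exact (Clopper-Pearson) interval of counting error unless it is stated otherwise. No annotation of the build of the files, mm9, was used here, so the blocks are named by position and the T cell label was not checked against marker genes.

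On chromosomes 1 to 19, the H3K36me3 libraries held 6599587 reads in CD4 and 6604331 in CD8. There were 10491937 H3K4me3 reads in CD4 and 11878642 in CD8, and 9913123 input reads in CD4 and 9716101 in CD8. In 139027 far windows that were not enriched and held at least 40 pooled input reads, H3K36me3 stood at 0.362 times input in CD4 and 0.368 in CD8. The background of H3K4me3 in those windows was 0.198 times input in CD4 and 0.0144 in CD8, so stray H3K4me3 reads were far more common in the CD4 library.

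Most blocks were short and moderately enriched, within the rule's bounds of under 100 kb and at least 2 times input. Of the 1434 blocks, 681 (47.5%) were a single window, 309 had 2 windows, 260 had 3 or 4 and 184 had 5 or more. The median length was 20 kb. A block held a median of 159 H3K36me3 reads in CD4 and 157.5 in CD8, beside 70.5 input reads in CD4 and 70 in CD8. Together the blocks held 6.01% of the CD4 H3K36me3 reads and 6.20% of the CD8 H3K36me3 reads, against 1.50% of the input reads in either cell type. The median pooled H3K36me3 level was 3.06 times input, and 258 blocks stood at 5 times input or more. Each cell type alone gave a similar level, with medians of 3.15 times input in CD4 and 3.19 in CD8. A total of 1202 blocks reached 2 times input in both cell types. These levels chose the blocks and are given as a description.

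The strongest blocks belonged to enriched runs that continued toward an H3K4me3 window. By H3K36me3 reads per kb, the block at chr1:139960001-139980000 came first, with 595 H3K36me3 reads in CD4 and 907 in CD8, against 87 and 108 input reads. It was the far part of a 120 kb enriched run that reached H3K4me3. The next, chr7:80570001-80630000, had 1971 H3K36me3 reads in CD4 and 2251 in CD8, against 315 and 327 input reads, and was part of a 130 kb run whose H3K4me3 end (chr7:80682001-80688000) had 1817 H3K4me3 reads in CD4 and 405 in CD8. Then came chr9:115150001-115160000, with 352 H3K36me3 reads in CD4 and 325 in CD8, against 60 and 56 input reads, in a run of only 40 kb that stopped 28 kb short of H3K4me3. The block at chr4:123140001-123190000 had 1468 H3K36me3 reads in CD4 and 1900 in CD8, against 247 and 260 input reads. The last of the 5, chr6:136520001-136560000, had 1303 H3K36me3 reads in CD4 and 1237 in CD8, against 187 and 154 input reads. All 5 lay between 50 and 58 kb from H3K4me3 and adjoined enriched windows nearer to it.

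The longest blocks, 11 in all, spanned 90 kb each, and the 5 of them with the most reads are given here. The one with the most reads, chr11:107460001-107550000, had 1709 H3K36me3 reads in CD4 and 1531 in CD8, against 438 and 422 input reads, and was part of a 140 kb run that reached H3K4me3. The block at chr13:14210001-14300000 had 1217 reads in CD4 and 1506 in CD8, against 409 and 396 input reads. At chr2:6460001-6550000 there were 1153 reads in CD4 and 1554 in CD8, against 456 and 428 input reads. These last blocks stood free, with no enriched window adjoining them on either side, and began 52 and 90 kb from the nearest H3K4me3. The block at chr13:117640001-117730000 also stood free, 82 kb from H3K4me3, with 1081 reads in CD4 and 1299 in CD8, against 432 and 477 input reads. The remaining one, chr13:20330001-20420000, had 1056 reads in CD4 and 1116 in CD8, against 475 and 467 input reads, and adjoined a run that came within 22 kb of H3K4me3. Over all 11 blocks of 90 kb, H3K36me3 stood at 2.70 to 5.86 times input in CD4 and 2.89 to 5.59 in CD8.

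H3K36me3 thinned out with distance from H3K4me3 and did not stop at the 50 kb limit. Among windows with at least 20 input reads, 31.9% were enriched at 2 to 8 kb from an H3K4me3 window, 17.97% at 40 to 48 kb, 14.2% at 50 to 58 kb, 4.28% at 100 to 148 kb and 1.19% at 200 to 298 kb. Beyond 500 kb, 12 of 56683 windows were enriched (0.0212%). The mean level over all such windows, enriched or not, was 2.14 times input in CD4 and 2.17 in CD8 at 2 to 8 kb. It was 1.12 in CD4 and 1.11 in CD8 at 50 to 58 kb, and 0.303 and 0.345 beyond 500 kb. Accordingly the blocks crowded against the limit: 760 of them (53.0%) lay under 60 kb from H3K4me3, the median distance was 58 kb, and 348 lay at 100 kb or more, 107 at 200 kb or more and 14 at 400 kb or more.

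**Figure D1:**
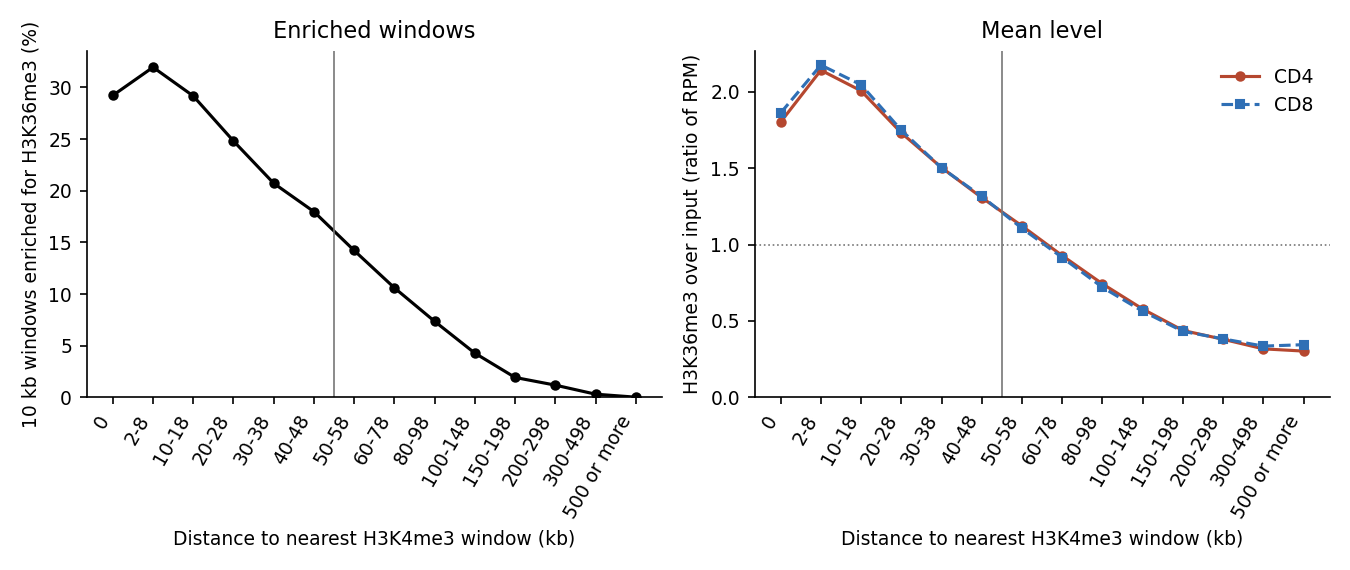
Share of 10 kb windows enriched for H3K36me3 (left, in percent) and mean H3K36me3 level over input (right, ratio of RPM, CD4 and CD8 drawn separately) by distance to the nearest H3K4me3 window in kb, with the vertical line at 50 kb. The share falls smoothly past the line, with 14.2% at 50 to 58 kb and 4.28% at 100 to 148 kb, and the CD4 and CD8 levels run together.

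Windows with many H3K36me3 reads lay on both sides of the distance limit. Those named inside it are whole blocks and those outside it single windows, so their read totals are not compared. Just inside it at 50 kb, with the most H3K36me3 reads, lay chr4:106040001-106120000 with 1940 H3K36me3 reads in CD4 and 2090 in CD8, chr17:74980001-75060000 with 1809 and 2106, and the block at chr4:123140001-123190000 given above. Just outside it at 48 kb lay the single windows chr19:57130001-57140000 with 416 reads in CD4 and 436 in CD8, chr1:154690001-154700000 with 356 and 364, and chr18:68010001-68020000 with 319 and 375. At the limit of level, the blocks chr14:87310001-87320000, chr10:28300001-28310000 and chr15:35720001-35730000 stood at 2.00 times input with 39, 49 and 49 CD4 reads and 70, 56 and 56 CD8 reads. The windows chr12:117130001-117140000, chr1:108380001-108390000 and chr13:94160001-94170000 missed it with 50, 39 and 66 CD4 reads and 28, 43 and 59 CD8 reads.

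Whether the windows adjoining a block were enriched, and how near their run came to H3K4me3, divided the blocks into 3 kinds. In 173 blocks (12.1%), the enriched run that held the block reached an H3K4me3 window without a gap. Another 468 blocks (32.6%) adjoined enriched windows that came nearer than 50 kb but stopped short of H3K4me3. The other 793 (55.3%, interval 52.7 to 57.9) had no enriched neighbour on either side. Together the attached kinds made up 44.7% of the blocks (interval 42.1 to 47.3), with 31.6% of the single windows attached and 60.9% of the blocks of 5 or more windows. The median level was 5.15 times input in blocks whose run reached H3K4me3, 4.03 in those that came nearer and 2.66 in free-standing blocks. Of the free-standing blocks, 58.8% were single windows, and their median distance to H3K4me3 was 92 kb.

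The levels around the blocks follow in part from how the kinds were defined, since a run continues on the H3K4me3 side in the attached kinds and a free-standing block has no enriched neighbour. In the 173 blocks whose run reached H3K4me3, the summed level within the block was 5.28 times input in CD4 and 5.68 in CD8. One window toward H3K4me3 it was 5.45 in CD4 and 5.97 in CD8, and 1 window beyond the block, where 34.1% of the windows were enriched, it was 2.45 and 2.67. Free-standing blocks stood at 3.12 times input in CD4 and 3.16 in CD8, with 1.39 and 1.34 in the window toward H3K4me3 and 1.32 and 1.30 in the window beyond. All windows at 80 to 98 kb from H3K4me3, a range that holds the median distance of these blocks, stood at 0.743 times input in CD4 and 0.720 in CD8. In free-standing blocks, whose definition favours neither side, the flanking window nearer to H3K4me3 held the higher level in 434 of 793 (54.7%). Of 285 blocks with 4 or more windows, 148 (51.9%) were higher in the part nearer to H3K4me3, and the summed level was 4.54 times input in the nearer parts and 4.53 in the farther parts.

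**Figure D2:**
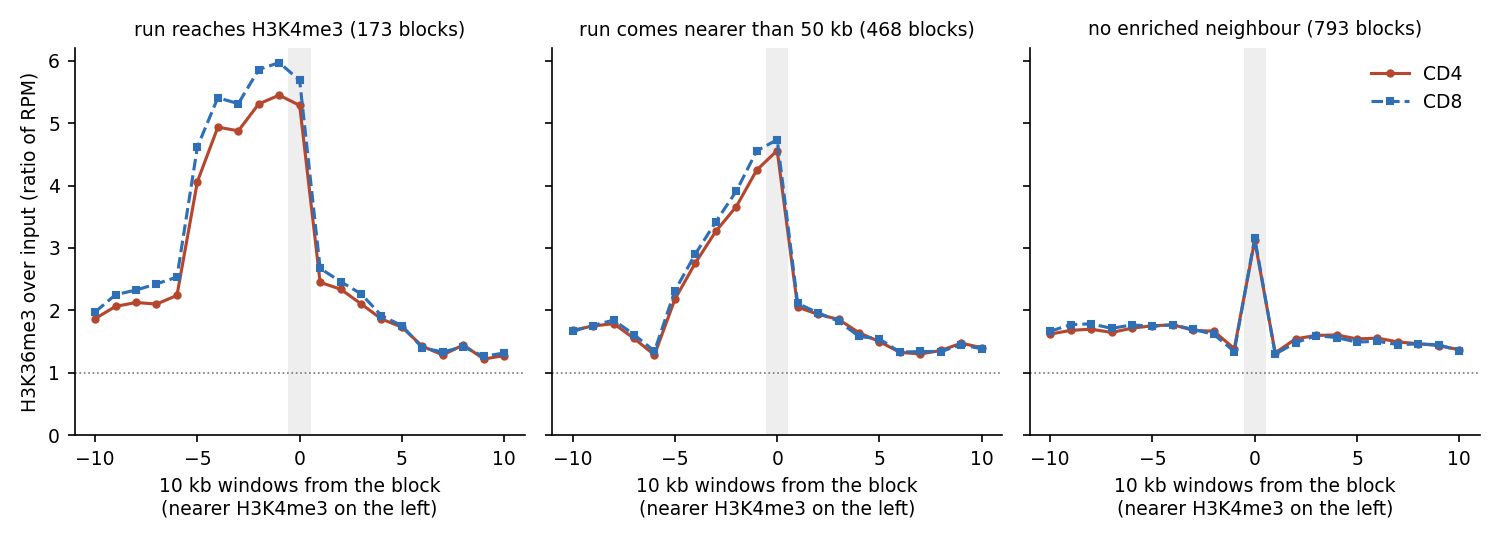
Summed H3K36me3 level over input (ratio of RPM, CD4 and CD8 drawn separately) in the block (shaded, position 0) and in each of 10 windows of 10 kb on both sides, for the 3 kinds of block, with the side nearer to H3K4me3 on the left. Blocks whose run reached H3K4me3 continue at a like level to the left, as their kind was defined, and stand at 2.45 in CD4 and 2.67 in CD8 1 window to the right, while free-standing blocks stand out from their neighbours at 3.12 and 3.16.

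A check that did not use the selecting libraries was to choose blocks in 1 cell type and read them in the other. The 3 CD4 libraries alone, with the read minimums set to 20 for H3K36me3 and 10 for H3K4me3, gave 1464 blocks. In the CD8 libraries, 1132 of these (77.3%, interval 75.1 to 79.4) stood at 2 times input or more, against 2.63% of all 10 kb windows 50 kb or more from H3K4me3 and 11.1% of all windows with at least 20 input reads. The 3 CD8 libraries gave 1583 blocks, of which 1266 (79.97%, interval 77.9 to 81.9) passed in CD4, against 2.65% of far windows and 11.2% of all windows. Without the exclusion by input the shares were 77.4% in CD8 and 79.99% in CD4. The far windows were not matched to the blocks by distance. At 50 to 58 kb from H3K4me3, 14.2% of windows were enriched in the pooled reads. The median level in the cell type not used was 2.97 times input for blocks chosen in CD4 and 2.94 for those chosen in CD8.

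Longer blocks were seen again more often. Single windows chosen in CD4 passed in CD8 in 64.5% of cases (interval 60.9 to 67.9), blocks of 2 windows in 83.6%, of 3 or 4 in 93.7% and of 5 or more in 97.1%. Chosen in CD8 and read in CD4, the shares were 67.0% (interval 63.6 to 70.2), 87.8%, 94.2% and 99.0%. Below the input level stood 29 of the 1464 blocks chosen in CD4 and 25 of the 1583 chosen in CD8, of which 26 and 25 were single windows. With a distance limit of 100 kb the shares were lower, at 70.0% in CD8 and 71.6% in CD4. With blocks chosen at 3 times input and still read at 2 times input, they were 94.4% and 95.4%.

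**Figure D3:**
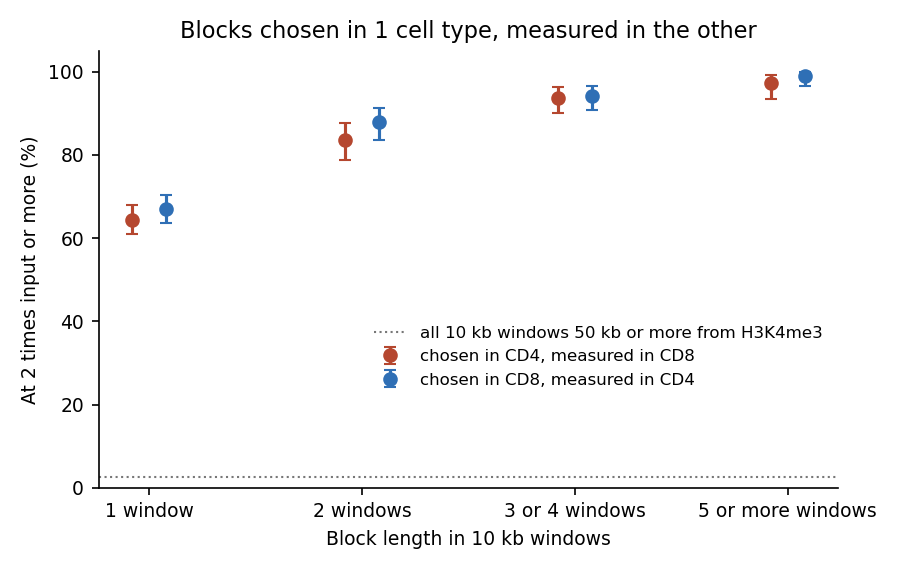
Percentage of blocks at 2 times input or more in the cell type that was not used to choose them, by block length in 10 kb windows, with 95% exact intervals as bars. The shares go from 64.5% and 67.0% for single windows to 97.1% and 99.0% for 5 or more windows, against 2.63% (CD8) and 2.65% (CD4) of all far windows, which the dotted line shows as their mean. The far windows were not matched to the blocks by distance.

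The lists overlapped strongly with the pooled one. Of the 1464 blocks chosen in CD4, 84.4% shared a window with a pooled block, and 85.7% of the pooled blocks shared one with them. Of the 1583 chosen in CD8, 81.4% shared a window with a pooled block, and 89.7% of the pooled blocks shared one with them. The rule was also run with an input in place of the H3K36me3 library. With at least 40 reads, CD4 H3K36me3 over the CD8 input gave 1462 blocks, 451 of them with 3 or more windows, against 163 single windows and no longer block with the CD4 input in its place. CD8 H3K36me3 over the CD4 input gave 1483 blocks, 459 of them with 3 or more windows, against 285 single windows and no longer block with the CD8 input. At the minimum of 20 reads used for the lists of 1 cell type, CD4 H3K36me3 gave 1512 blocks, against 459 with the CD4 input, 1 of them longer than a window. CD8 H3K36me3 gave 1532, against 636 with the CD8 input, 2 of them longer than a window. The inputs thus gave many single windows, whereas no input block reached 3 windows under either minimum. An input set against the other input averages near the input level. Far windows not enriched for H3K36me3 stood at 0.362 times input in CD4 and 0.368 in CD8. The inputs also held more reads than the H3K36me3 libraries. These counts therefore do not give the share of single-window blocks that are background.

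H3K4me3 inside the blocks was low but not zero, and the label holds only under its rule. The summed H3K4me3 level was 0.239 times input in CD4 and 0.0252 in CD8. In the 139027 far windows above it was 0.198 and 0.0144, and in runs under 100 kb near H3K4me3 3.73 and 4.59. The far windows were not matched to the blocks by distance. All windows with at least 20 input reads stood at 0.244 in CD4 and 0.0315 in CD8 at 50 to 58 kb. At 60 to 78 kb they stood at 0.238 and 0.0293, and at 100 to 148 kb at 0.218 and 0.0218. The level in the blocks was thus not above that of all windows at 50 to 58 kb. A 2 kb window at the median input of 16 reads needed 72.9 H3K4me3 reads to count, so weaker peaks were not counted by the rule. A total of 47 blocks (3.28%) held a 2 kb window with 20 or more H3K4me3 reads, and 21 (1.46%) one with 10 or more reads in the low-background CD8 library. Per 10 kb window, a 2 kb window of 20 reads occurred in 1.48% of the windows of the blocks, against 0.831% of 147596 far windows that were not enriched and held at least 20 input reads. One of 10 CD8 reads occurred in 0.633% of the windows of the blocks, against 0.533%. These shares were not matched by distance either. Within 50 kb of the block or in it, a window of at least 20 reads occurred for 435 blocks (30.3%) and one of at least 20 reads and 2 times input for 247 (17.2%). Among single-window blocks the shares were 29.8% and 16.9%, against 7.73% and 3.96% of the 147596 far windows that were not enriched. Both shares depended on distance to the H3K4me3 windows of the rule. Of the single-window blocks, a window of at least 20 reads occurred in or within 50 kb of 34.8% at 50 to 58 kb, against 28.9% of the windows not enriched at that distance. At 60 to 98 kb it was 33.9% of single-window blocks, against 21.7% of windows not enriched, and at 100 kb or more 19.6%, against 4.85%. Weak H3K4me3 was thus more frequent around single-window blocks in each range, though in the last range the windows not enriched lay mostly at greater distances. Finally, 401 blocks had no CD8 H3K4me3 read, which allows up to 3 reads in each.

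The largest of these weak peaks were as follows, chosen after their values were seen. The block at chr10:30250001-30260000 held 115 H3K4me3 reads in CD4 and 6 in CD8, with 107 of them in 1 window of 2 kb, beside 91 H3K36me3 reads in CD4 and 110 in CD8. At chr5:143870001-143880000 there were 79 H3K4me3 reads in CD4 and 41 in CD8. The block at chr14:16860001-16880000 had the most CD8 H3K4me3 reads, 54, beside 58 in CD4. In these blocks H3K4me3 reads gathered within the block itself, and leaving out everything near a window of 20 reads and 2 times input gave 1245 blocks in place of 1434.

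Read pile-ups made up few of the blocks. Distinct start positions accounted for a median of 95.7% of the H3K36me3 reads of a block and 98.9% of its input reads, close to the 94.9% and 98.9% of runs near H3K4me3. In 12 blocks at least 25% of the H3K36me3 reads lay within 200 bp. The most extreme, chr12:75900001-75910000, had 118 H3K36me3 reads in CD4 and 111 in CD8, against 64 and 71 input reads, but 64.2% of them lay in 200 bp and only 48.03% had distinct starts. A pile-up of this kind also marked chr2:18190001-18220000 (64.2% distinct) and chr9:13210001-13220000 (77.97% distinct). A total of 6 blocks had under 20 input reads. The extreme case was chr17:33430001-33440000, with 50 H3K36me3 reads in CD4 and 71 in CD8 but 1 input read in CD4 and 0 in CD8, so its level over input is poorly defined.

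CD4 and CD8 cells carried nearly the same H3K36me3 in most blocks. The ratio of CD4 to CD8 reads was centred on its median over all 25892 enriched windows, a shift of -0.027 on the log2 scale against scaling by total reads. The rule had used the sum of both cell types and not their ratio, but a block could pass it through 1 cell type alone. The median log2 ratio of the blocks was -0.0092, the middle 90% of the blocks ran from -0.56 to 0.67, and 1269 blocks (88.5%) were within 1.5-fold.

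A block was called higher in a cell type at 2-fold or more with an exact interval of error rate 0.001 that excluded 1. Of the 1434 blocks, 20 (1.39%) were higher in CD4, against 1.52% of all enriched windows, and 9 (0.628%) were higher in CD8, against 0.649%. Among runs under 100 kb near H3K4me3, 1.83% passed as higher in CD4 and 0.536% as higher in CD8. Window by window, 0.964% of the windows in blocks were higher in CD4, against 1.60% of other enriched windows, and 0.633% were higher in CD8, against 0.651%. The share called was thus near the background for CD8, and for CD4 it was near the background by block and below it by window. Most of the called blocks were under 2 times input in the cell type where they were lower. Those had passed the rule only through the other cell type. Most called blocks were also single windows, and among the 444 blocks of 3 or more windows 1 was higher in CD4 and 3 were higher in CD8. Of the 20 blocks higher in CD4, 15 stood free and 5 adjoined a run nearer to H3K4me3, while of the 9 higher in CD8, 6 stood free, 2 adjoined such a run and 1 was in a run that reached H3K4me3. At 3-fold, 6 blocks were higher in CD4 and 2 in CD8, and dividing by the input ratio gave 30 and 28.

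**Figure D4:**
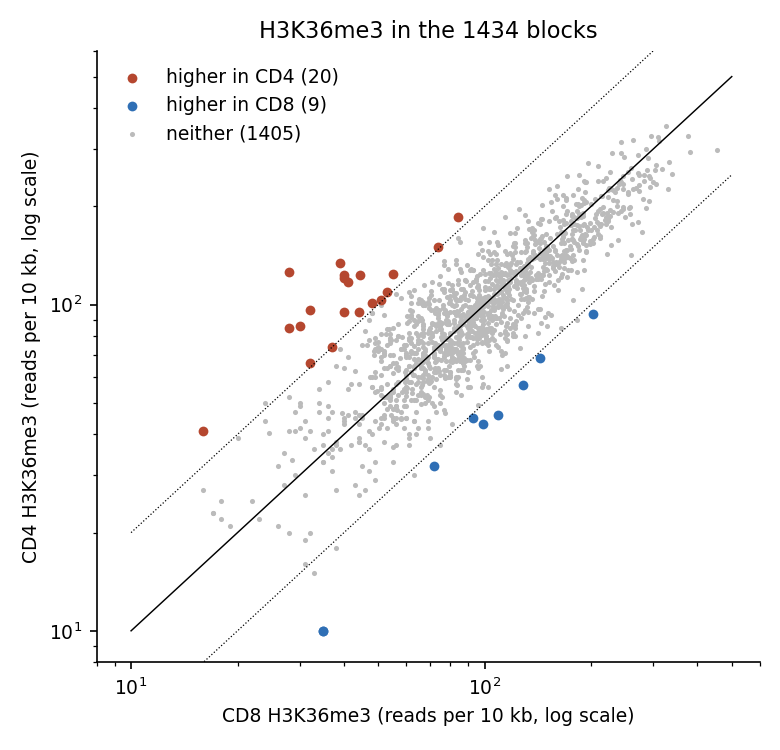
H3K36me3 reads per 10 kb in CD4 against CD8 for each block, both on log scales, with the 20 blocks called higher in CD4, the 9 called higher in CD8 and the 1405 others. The solid line marks equal reads and the dotted lines a 2-fold difference; the cloud follows the solid line and the called blocks lie at low to middle levels.

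The clearest CD4 block was chr2:10160001-10170000, with 126 H3K36me3 reads in CD4 and 28 in CD8, against 49 and 64 input reads. The ratio of CD4 to CD8 was 4.59 (interval 3.03 to 7.18), and the CD8 reads stood below the input level, at 0.644 times. The block at chr3:40940001-40950000 had 134 reads in CD4 and 39 in CD8, against 40 and 35 input reads, a ratio of 3.504 (interval 2.44 to 5.14). At chr7:117420001-117430000 there were 121 reads in CD4 and 40 in CD8, against 53 and 45 input reads, a ratio of 3.09 (interval 2.14 to 4.53). All 3 were single windows that stood free.

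Neighbouring blocks on chromosome 6 differed together. The block at chr6:103620001-103630000 had 123 H3K36me3 reads in CD4 and 40 in CD8, against 56 and 44 input reads, a ratio of 3.14 (interval 2.18 to 4.60). The block at chr6:103640001-103670000, the only one of 3 or more windows called higher in CD4, had 369 reads in CD4 and 133 in CD8, against 118 and 123 input reads, a ratio of 2.83 (interval 2.31 to 3.48). The nearest H3K4me3 lay 156 and 176 kb to the left, at chr6:103460001-103464000, with 607 reads in CD4 and 240 in CD8. Both marks were thus higher in CD4 there, whereas the H3K4me3 windows as a whole had a median log2 ratio of CD4 to CD8 of -0.57. Of the 20 blocks higher in CD4, 6 were on chromosome 7 and 5 on chromosome 6.

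Among blocks higher in CD8, the largest was chr1:69570001-69630000. It had 340 H3K36me3 reads in CD4 and 768 in CD8, against 286 and 302 input reads, a ratio of CD4 to CD8 of 0.452 (interval 0.396 to 0.514). The nearest H3K4me3 window, 54 kb to the right at chr1:69684001-69686000, had 103 reads in CD4 and 3 in CD8, so the marks differed in opposite directions. Farther right, chr1:69732001-69734000 had 1015 H3K4me3 reads in CD4 and 147 in CD8. The block at chr11:45930001-45960000 had 280 H3K36me3 reads in CD4 and 606 in CD8, against 154 and 128 input reads, a ratio of 0.471 (interval 0.408 to 0.544). Its run reached H3K4me3 with 638 reads in CD4 and 1514 in CD8. After centring on the median of the H3K4me3 windows, the log2 ratio of CD4 to CD8 there was -0.68. This was in the direction of the block but short of 2-fold.

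The other named CD8 blocks rested on less. The block at chr9:24220001-24250000 had 206 H3K36me3 reads in CD4 and 430 in CD8, against 146 and 174 input reads, a ratio of 0.489 (interval 0.412 to 0.578), and lost the call with 1 read per start position and when divided by the input ratio. At chr8:72080001-72090000 there were 10 reads in CD4 and 35 in CD8, against 11 and 16 input reads, and the call was lost under the same settings. The block at chr15:37790001-37800000 also had 10 reads in CD4 and 35 in CD8, against 20 and 8 input reads, so the inputs differed in the opposite direction. For both single windows the ratio was 0.291 (interval 0.129 to 0.601).

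The nearest H3K4me3 differed 2-fold in the direction of the block for a minority of the called blocks. It was at least 2-fold higher in CD4, after centring on the median of the H3K4me3 windows, for 7 of the 20 blocks higher in CD4, for 1 of the 9 higher in CD8 and for 265 of the 1405 others. It was at least 2-fold higher in CD8 for none of the 20, none of the 9 and 44 of the 1405. With the H3K4me3 on either side counted, the shares higher in CD4 lay closer together. They were 8 of the 20 (40%), 2 of the 9 (22.2%) and 488 of the 1405 (34.7%). Those higher in CD8 on either side were 1 of the 20 (5%), none of the 9 and 117 of the 1405 (8.33%). Fewer cells with the mark and less of the mark per cell cannot be told apart in such libraries.

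The most distant blocks were small. The farthest, chr12:94120001-94130000, lay 1032 kb from H3K4me3 and had 46 H3K36me3 reads in CD4 and 109 in CD8, against 30 and 21 input reads; it was called higher in CD8 with a ratio of 0.430 (interval 0.298 to 0.613). It also held 7 H3K4me3 reads in CD4 and 13 in CD8, most of them in 1 window of 2 kb with 11 reads. The next, chr6:130160001-130170000 at 618 kb, had 72 H3K36me3 reads in CD4 and 50 in CD8, against 37 and 39 input reads. At 534 kb, chr15:5730001-5740000 had 27 reads in CD4 and 16 in CD8, against 8 and 18 input reads. Both were free-standing single windows under 2 times input in CD8.

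Blocks gathered in certain stretches between H3K4me3 windows. The 1434 blocks lay in 959 such stretches, of which 710 held 1 block and 26 held 5 or more, and 623 blocks (43.4%) lay within 50 kb of another block. The fullest, described after its values were seen, was on chromosome 2, where 16 blocks covered 390 kb between chr2:43680001 and 44710000. They had 3312 H3K36me3 reads in CD4 and 3488 in CD8, against 1774 and 1778 input reads, a ratio of CD4 to CD8 of 0.968 (interval 0.923 to 1.02). Its longest blocks, of 7 windows each, were chr2:43680001-43750000, with 628 reads in CD4 and 698 in CD8, and chr2:44090001-44160000, with 556 and 580. The other blocks among the 5 farthest also lay here: chr2:44170001-44190000 at 562 kb, with 137 reads in CD4 and 115 in CD8, and chr2:44210001-44220000 at 558 kb, with 45 and 55.

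The cell types had nearly equal H3K36me3 over that stretch but very unequal H3K4me3 at its left end. At chr2:43604001-43608000 there were 1211 H3K4me3 reads in CD4 and 20 in CD8. At the right end, chr2:44778001-44784000, there were 841 in CD4 and 1186 in CD8. No block of the 16 was called, and their log2 ratios ran from -0.36 to 0.37.

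**Figure D5:**
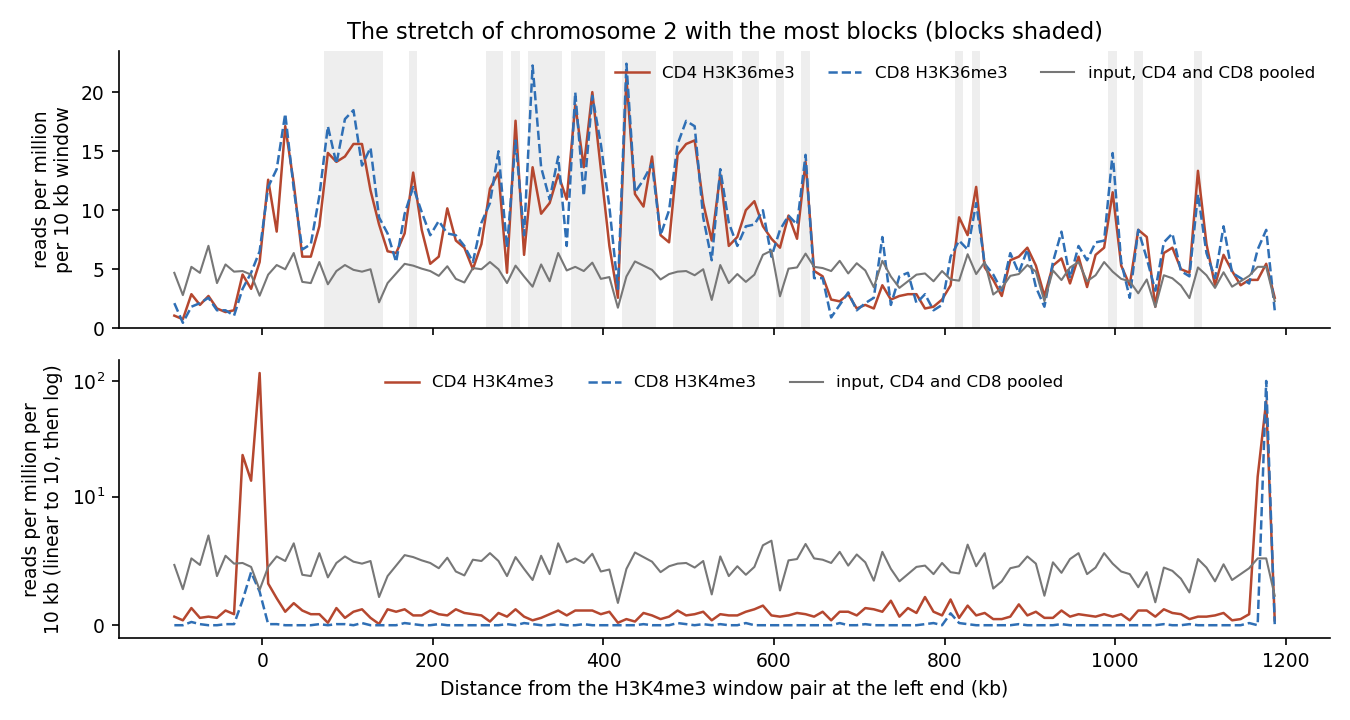
H3K36me3 (top, linear axis) and H3K4me3 (bottom, linear to 10 and then log) in RPM per 10 kb window along the stretch of chromosome 2 with the most blocks, by distance in kb from the H3K4me3 windows at its left end, for CD4, CD8 and the pooled inputs, with blocks shaded. The CD4 and CD8 H3K36me3 lines follow each other across the 16 blocks, while the H3K4me3 peak at the left end has 1211 reads in CD4 and 20 in CD8.

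Other crowded stretches held fewer blocks. The stretch chr15:35360001-35810000 had 10 blocks with 1596 H3K36me3 reads in CD4 and 1838 in CD8, a ratio of 0.886 (interval 0.828 to 0.948). The stretch chr6:33250001-33880000 had 10 blocks with 962 reads in CD4 and 987 in CD8, a ratio of 0.994 (interval 0.909 to 1.09). In chr14:16660001-17020000, 9 blocks had 917 reads in CD4 and 1227 in CD8, a ratio of 0.762 (interval 0.699 to 0.831), the lowest of the 4 stretches with 9 or more blocks. One of its blocks, chr14:16840001-16850000, was called higher in CD8 with 43 reads in CD4 and 99 in CD8. A further 5 stretches held 7 blocks each.

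Every chromosome from 1 to 19 held blocks. Their density ran from 4.07 per 10 Mb on chromosome 3 to 7.32 on chromosome 2. The share of enriched windows that fell in blocks ran from 8.54% on chromosome 8 to 18.6% on chromosome 13. The median log2 ratio of CD4 to CD8 over the blocks of a chromosome lay between -0.10 on chromosome 9 and 0.11 on chromosome 5.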

How the data were processed

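The authors deposited read positions, a start and an end for each aligned read of 33 bp, and the build was mm9 per the submitters' processing notes. Aligner and filters were not given in the sources used here. Printed coordinates count from 1 and could be off by 1 bp, as the deposited files do not say where counting begins. Reads were counted by midpoint in windows and scaled to reads on chromosomes 1 to 19. The distance is the gap between window edges. Blocks and comparisons were chosen with earlier results of these data known. Regions named were the 5 blocks with the most reads per kb, the 5 longest, the 5 farthest, the 5 with the largest lower bound of the ratio in each direction, and 3 on each side of both thresholds (by reads at the distance limit); others were chosen after their values were seen. Input was set to at least 3 reads in levels, and ratios against 0 used a floor of 3. Intervals cover counting error only, compare libraries and not conditions, and they treat reads as independent although the files carry no molecular identifiers. The rule and the calls were tested on simulated data. Alternatives were 1 read per start position, other read, fold, distance and input limits, shifted windows and other scalings; weaker H3K4me3 limits with 20 reads, H3K4me3 from 1 cell type, an input minimum and longer blocks alone were added after seeing the data. Counting used NumPy 2.4.6 and pandas 2.3.3 under Python 3.11.15, intervals SciPy 1.17.1 and plots matplotlib 3.10.9.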

Additional observations from a re-analysis of the deposited data

Results flagged for a closer look

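Blocks at chr15:37790001-37800000 and chr2:10160001-10170000 stood on opposite sides of the input level in the CD4 and CD8 libraries. At chr15:37790001-37800000, H3K36me3 was 0.751 times input in CD4 and 6.44 times input in CD8. At chr2:10160001-10170000 it was 3.86 times input in CD4 and 0.644 times input in CD8. With 1 library per group these differences were not tested.

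Chromosomes X and Y were outside the rule. Applied there, it gave 78 blocks on X, with summed H3K36me3 at 4.16 times input in CD4 and 5.17 in CD8. It gave 1 block on Y, at 9.04 times input in CD4 and 7.79 in CD8.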

How the results depend on the processing

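No paired analysis was possible because every group had 1 library. The number of blocks depended most on the distance limit: at 100 kb there were 493 blocks, with a median level of 2.75 times input, 29.4% attached to a run nearer to H3K4me3, and 70.0% (CD8) and 71.6% (CD4) passing in the other cell type. With blocks chosen at 3 times input the median level was 4.34, and these shares, still read at 2 times input, were 94.4% and 95.4%. The CD8 share was 79.6% with 1 read per start position and 79.7% with H3K4me3 from 10 reads and 2 times input. Scaling by total reads gave a median log2 ratio of -0.037. Dividing by the input ratio, whose own counting error was not added, gave 28 blocks higher in CD8, a 3-fold limit gave 6 higher in CD4 and 2 in CD8, and blocks of 3 or more windows gave 1 and 3. The other 41 values stayed within their interval or, for counts, within 1.5-fold, which blocks higher in CD4 only just met when divided by the input ratio (30). Among them, H3K4me3 from the CD4 libraries alone gave 1351 blocks, from the CD8 libraries alone 1518, and counting windows of 10 CD8 reads as H3K4me3 gave 1226. Of 40 values for blocks named as differing, 32 kept their call, 8 lost it and 0 changed direction. Single windows hold the fewest reads; the effect of depth was not tested.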
